A study of Mus musculus with 11 samples.

Results

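The regions described here are the distal places in the genome where Runx3 was mapped without Brn3a and without a recognisable RUNX word under the peak. They numbered 3691 of the 25883 nuclear peaks in the Runx3 list (14.3%). A peak was a member when it shared no base with any Brn3a peak, when its centre lay over 1 kb from every start site of transcription (TSS) of protein-coding transcripts, and when the table's count of RUNX binding sites (RBS) was 0. The 300 kb around Runx3 were left out, since the transgene of these mice carries that locus, and 3 further peaks fell away with them. Members made up 31.8% of the 11622 Runx3-only distal peaks. The absence of RUNX words, of Brn3a and of nearby promoters is therefore how these peaks were chosen and not a result.

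The libraries were CUT&RUN, in which a nuclease is brought by an antibody to the protein of interest and the fragments it cuts free are sequenced. The cells were TrkC neurons of mouse dorsal root ganglia (DRG) at E12.5, sorted by green fluorescent protein from Runx3-BAC-GFP-CB6 transgenic embryos. All 11 libraries shared that genotype, age and sort, and they differed only in the antibody, with 3 for Runx3, 4 for Brn3a, 3 for H3K27Ac and 1 with normal rabbit serum. The reporter sits on a bacterial artificial chromosome with the Runx3 locus, so that any cell in which it is active was sorted, and the identity of the sorted cells could not be checked against marker genes, because no expression was measured. The Runx3 list held peaks found in at least 2 of its 3 libraries and the Brn3a list peaks found in at least 2 of its 4. These lists pool the replicates and give no height, score or value per library, so that the read depth behind a peak is unknown. Tests and intervals below count peaks and do not measure the spread between libraries, and neighbouring peaks are not independent of each other. No list for the serum library was used, so whether members also stand out with serum was not tested.

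RUNX factors, bound to their partner Cbfb, read a short word of the form TGTGGT through the Runt domain. In DRG, Runx3 directs TrkC neurons towards the proprioceptive fate, that of the sensory neurons that report muscle stretch, and Brn3a, a POU-homeodomain factor encoded by Pou4f1, acts in most sensory neurons. CTCF is a zinc finger protein that binds a long consensus and holds the anchors of chromatin loops, and its sites are open in most cell types.

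Sequences of single members give examples of words found in or beside some of these peaks, and whether Runx3 is there through them was not tested. They were chosen after their values were seen, are taken from the RefSeq sequence of GRCm38 (plus strand, written 5′ to 3′), and carry the name of a gene whose regulatory domain, defined further on, holds them. The first set shows peaks with the CTCF consensus, in capitals. The member of Ret, the receptor of GDNF-family ligands, was the intronic peak at chr6:118179690-118179859, 17.9 kb from the 5′ end of the gene. The member of Cbfb was intergenic at chr8:105218058-105218140. That of the axon repellent Sema3a was intergenic at chr5:13629175-13629286, 503.8 kb from the 5′ end of the gene. The member of Nrxn3, a presynaptic adhesion protein, was at chr12:89106574-89106650 in an intron, 383.7 kb from the 5′ end.
Ret: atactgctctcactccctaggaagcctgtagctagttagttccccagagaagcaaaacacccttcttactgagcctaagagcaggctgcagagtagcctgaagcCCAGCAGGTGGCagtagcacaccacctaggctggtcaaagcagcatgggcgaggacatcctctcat
Cbfb: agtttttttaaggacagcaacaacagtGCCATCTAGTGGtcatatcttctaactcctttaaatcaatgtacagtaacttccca
Sema3a: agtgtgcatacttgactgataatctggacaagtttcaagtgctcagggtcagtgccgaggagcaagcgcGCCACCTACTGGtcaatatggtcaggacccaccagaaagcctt
Nrxn3: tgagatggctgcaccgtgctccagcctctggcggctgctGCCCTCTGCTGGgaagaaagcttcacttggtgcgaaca
In these 4 peaks the middle of the consensus lay between 25.5 bp right and 8.5 bp left of the peak centre. The Ret and Cbfb peaks also had a RUNX word within 100 bp beyond an edge.

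The second set shows words that differ from a RUNX word in the first base alone, CGTGGT or CGCGGT, in capitals and on either strand. The peak nearest to Etv1, an ETS factor of proprioceptors, lay at chr12:38778179-38778254, intergenic and 1.16 kb from the 5′ end of the gene. That of Meis1 was intergenic at chr11:18877791-18877915, 141.1 kb from the gene. For Meis2 the printed peak was intronic at chr2:115643964-115644081, 421.8 kb from the 5′ end of the gene. It was not the member nearest to Meis2, which lay at 5.775 kb. Meis1 and Meis2 encode homeodomain cofactors. A Brn3a peak lay 0.324 kb from the Meis1 peak and 0.509 kb from that of Meis2, whereas 363 of the 3691 members had one within 1 kb. The Meis2 peak also had a RUNX word within 100 bp beyond an edge.
Etv1: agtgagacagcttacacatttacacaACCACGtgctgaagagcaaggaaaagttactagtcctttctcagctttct
Meis1: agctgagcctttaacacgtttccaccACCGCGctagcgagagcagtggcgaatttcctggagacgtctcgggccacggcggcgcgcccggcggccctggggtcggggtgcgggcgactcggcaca
Meis2: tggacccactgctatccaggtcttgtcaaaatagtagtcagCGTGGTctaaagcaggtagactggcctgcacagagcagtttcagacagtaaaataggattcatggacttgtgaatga
The Etv1 and Meis1 peaks carried the word on the minus strand, and it is therefore printed as its reverse complement.

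The third set shows members whose nearest RUNX word lay just outside the peak, and the printed stretch runs from the peak to that word, in capitals. For Isl1, a LIM-homeodomain factor of sensory neurons, the peak at chr13:116646855-116646969 ended 60 bp before the word, and the stretch ran to position 116647035. For Whrn, the scaffold protein whirlin, the peak at chr4:63522154-63522270 began 73 bp after the word, and the stretch began at position 63522075.
Isl1: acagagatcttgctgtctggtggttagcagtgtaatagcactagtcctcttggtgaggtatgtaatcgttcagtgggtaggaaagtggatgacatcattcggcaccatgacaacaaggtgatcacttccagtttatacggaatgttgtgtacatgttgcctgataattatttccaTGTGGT
Whrn: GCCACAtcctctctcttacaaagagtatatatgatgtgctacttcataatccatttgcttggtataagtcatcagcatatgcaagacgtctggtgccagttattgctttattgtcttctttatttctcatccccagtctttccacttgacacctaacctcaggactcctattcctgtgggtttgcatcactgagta
In both, the word lay over 100 bp from the peak centre.

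The last set shows a GC box, an E-box and a peak with none of the words searched. The member of Nefl, the light neurofilament, held GGGCGG in an intron at chr14:68085153-68085216. The member of the homeodomain cofactor Pbx3 held CAGCTG in an intron at chr2:34357679-34357755, with a Brn3a peak 0.638 kb away. The member of Gfra2, a GDNF-family coreceptor, held none of the 23 sets of words at chr14:70894283-70894369, also in an intron.
Nefl: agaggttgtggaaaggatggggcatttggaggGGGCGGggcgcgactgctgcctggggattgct
Pbx3: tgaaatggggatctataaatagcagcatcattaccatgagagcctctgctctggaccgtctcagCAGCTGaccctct
Gfra2: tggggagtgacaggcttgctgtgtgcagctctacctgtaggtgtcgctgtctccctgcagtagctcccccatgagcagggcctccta
The words of the first and last sets are those whose shares are given next.

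Members were narrow peaks. Their median width was 113 bp, with quartiles of 83 and 156 bp and a range of 50 to 744 bp. The other 7931 Runx3-only distal peaks, which hold at least 1 RBS, had a median of 165 bp and quartiles of 117 and 230.5 bp. A wider stretch holds a word more often by its length alone, so this difference goes with the rule and was not tested. Of 3688 stretches as wide as the member and 2 kb away from it, 2946 (79.9%) held no RUNX word either. The RBS count was, in each of the 25885 peaks of the table, the number of matches on both strands to 4 words, which are TGTGGT itself, next the word TGCGGT, then the word TGTGGC and last the word TGCGGC. Of the Runx3-only distal peaks with RBS, 52.9% held just 1, and TGTGGT was present in 69.6%, TGTGGC in 35.4%, TGCGGT in 18.8% and TGCGGC in 9.57%. Peaks without RBS were as frequent or more so elsewhere in the Runx3 list, at 40.9% of the 5677 distal peaks that overlapped Brn3a (co-bound) and 44.5% of the 5796 Runx3-only promoter peaks. These 3 groups, Runx3-only distal with RBS (7931), co-bound distal without RBS (2321) and Runx3-only promoter without RBS (2578), are the groups with which members are compared.

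At the borders of the rule, 35 members had a TSS within 100 bp beyond the limit of 1 kb, and 42 peaks without RBS or Brn3a had one within 100 bp short of it and were not members. On the Brn3a side, 22 members had a Brn3a peak 1 to 25 bp from their edge, 60 within 100 bp and 166 (4.50%) within 300 bp. The median distance to the nearest Brn3a peak was 17.3 kb, and the nearest other Runx3 peak was at a median of 16.3 kb. Another Runx3 peak lay within 1 kb of 503 members (13.6%), and for 324 of these it held an RBS. Members were present on every chromosome, with shares among Runx3-only distal peaks from 25.2% on chromosome 12 to 36.7% on the X, apart from the Y with 3 of 5.

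Members lay mostly in introns and between genes. By the position of the centre, 1767 (47.9%) were intronic, 1638 (44.4%) intergenic, 163 (4.42%) in exons of noncoding transcripts, 63 (1.71%) in coding exons and 60 (1.63%) in untranslated regions (UTR). Compared with the Runx3-only distal peaks with RBS, members were less often intronic, 47.9% against 53.0% (odds ratio 0.814, 95% interval 0.753 to 0.880, exact adjusted p = 7.92e-07, Fisher's exact test). They were more often intergenic, 44.4% against 39.9% (odds ratio 1.20, 1.11 to 1.30, exact adjusted p = 1.26e-05). Exons of all kinds held 7.75% of members and 7.10% of that group, a difference that did not pass (odds ratio 1.10, 0.948 to 1.28, exact adjusted p = 0.287). Against co-bound distal peaks without RBS, members were more often exonic, 7.75% against 4.95% (odds ratio 1.61, 1.29 to 2.01, exact adjusted p = 4.67e-05), while introns (odds ratio 0.900, 0.811 to 0.999, exact adjusted p = 0.0774) and intergenic DNA (odds ratio 0.993, 0.895 to 1.10, exact adjusted p = 0.933) did not pass. All p-values are two-sided and were adjusted together over 103 tests, with a threshold of 0.05.

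The rule kept members away from protein-coding promoters but not from those of other genes. A noncoding TSS here means that of any gene not annotated as protein-coding, whatever its type. One lay within 1 kb of 272 members (7.37%), against 4.99% of Runx3-only distal peaks with RBS (odds ratio 1.51, 1.29 to 1.78, exact adjusted p = 1.47e-06, Fisher's exact test). Against co-bound peaks without RBS, at 6.20%, the difference did not pass (odds ratio 1.20, 0.976 to 1.48, exact adjusted p = 0.127). The median distance to the nearest protein-coding TSS was 29.1 kb for members, 30.4 kb for Runx3-only distal peaks with RBS and 45.7 kb for co-bound peaks without RBS. Members with more masked repeat than unmasked sequence were few, 51 of 3691 (1.38%), yet more than the 0.555% with RBS (odds ratio 2.51, 1.68 to 3.77, exact adjusted p = 2.60e-05). They also exceeded the 0.259% of co-bound (odds ratio 5.41, 2.32 to 12.6, exact adjusted p = 8.12e-06) and the 0.504% of promoter peaks without RBS (odds ratio 2.76, 1.50 to 5.09, exact adjusted p = 0.00101). These repeat calls depended on the setting. They were lost under 3 of 7 alternatives against peaks with RBS, 2 of 7 against co-bound and 3 of 7 against promoter peaks. With any masked base counted, the odds ratios against peaks with RBS and co-bound peaks turned to 0.710 and 0.688. A wider peak holds a masked base more often by its length alone, and both groups were wider than members. With the 102 members that share 24 bases with another member left out, the odds ratio against peaks with RBS was 1.66 (exact adjusted p = 0.0591, Fisher's exact test). The call against co-bound peaks was kept there.

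The 5 widest members were chr2:22589821-22590564 (744 bp, noncoding exon), chr11:90425477-90425999 (523 bp, intergenic), chr9:72639996-72640473 (478 bp, intergenic), chr13:53201698-53202156 (459 bp, intronic) and chr14:27367127-27367580 (454 bp, intronic). None of the 5 held a CTCF consensus. The widest had a GC content of 34.9%, and the others lay between 51.9% and 58.1%.

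To learn which other factors' words these peaks hold, a window of 200 bp around each centre was searched on both strands and compared with a window of the same size 2 kb away that touched no peak (3688 members had one). The sets of words were those of Brn3 (TTAATGA) and its core (ATTAAT), Isl1 (TAATGG), homeodomain factors (TAATTA), bHLH factors (the E-box CAGCTG and, as a separate set, the E-box CAGATG), ETS factors (either CCGGAA or the related word AGGAAG), AP-1 (TGACTCA), CRE (TGACGTCA), SP/KLF (GGGCGG), the CACCC box of Klf factors, written KLF CACCC (either GGGTGG or the related word GGGTGT), SOX factors (either ACAATG or the related word ACAAAG), EBF (CCCNNGGG), NFI (TTGGC), TEAD (GGAATG), RFX (GTTGCC), FOX (TGTTTAC), ONECUT (ATTGAT), NFY (CCAAT), the GATA factors (AGATAA), MEF2 (TATTTTTA) and the CTCF consensus of 12 letters. Some overlap one another, such as ATTAAT with TTAATGA, and CCAAT on the other strand with TTGGC. A match to such a word describes the sequence and does not show that the factor was bound. Of the 22 sets, 15 differed between members and their flanking windows (68.2%), 11 being more frequent in members and 4 less, by an exact McNemar test with adjustment over the 103 tests. The windows of members were also richer in GC than their flanks, with medians of 51 and 46.5%, and the part of this in the differences was not tested.

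**Figure D1:**
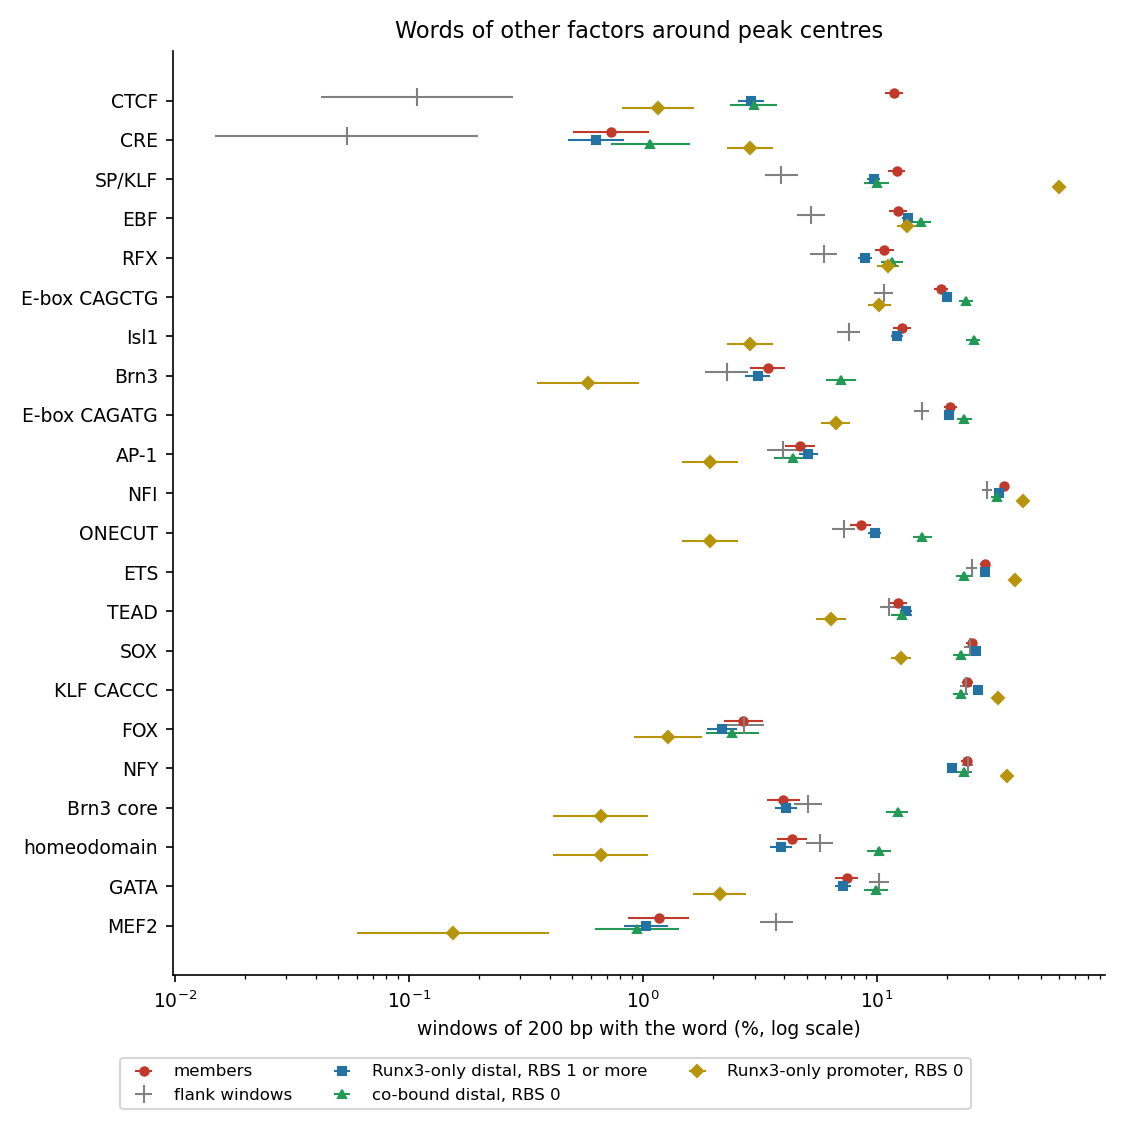
Share of 200 bp windows (%, log scale) with each set of words, for members, their flanking windows 2 kb away and 3 other groups of Runx3 peaks, with Wilson 95% intervals as lines. CTCF stands apart, at 11.8% of members against 0.108% of flanking windows and 1.16 to 2.97% of the other groups.

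The CTCF consensus showed the largest difference of the 22 sets. It was present in 436 of 3691 members (11.8%, 95% Wilson interval 10.8 to 12.9) and in 4 of 3688 flanking windows (0.108%), a ratio of 109 (40.8 to 291, exact adjusted p = 5.64e-122, exact McNemar test). Among Runx3-only distal peaks with RBS it was in 230 of 7931 (2.90%), so that the odds in members were 4.48 times higher (3.80 to 5.29, exact adjusted p = 4.55e-74, Fisher's exact test). Members thus held it more often than a group that was mapped with the same antibody in the same libraries. The co-bound distal peaks without RBS held it in 69 of 2321 (2.97%, odds ratio 4.37, 3.37 to 5.67, exact adjusted p = 1.39e-36) and the promoter peaks without RBS in 30 of 2578 (1.16%, odds ratio 11.4, 7.83 to 16.5, exact adjusted p = 9.03e-68). Both other groups without RUNX words were thus far below members. Distal peaks of the Brn3a list without Runx3, a list that the rule used only to remove overlaps, held it in 167 of 22327 (0.748%), given here without a test. With 1 letter of the consensus free, 1009 members (27.3%) had a match, as did 72 flanking windows (1.95%), 9.77% of peaks with RBS, 8.36% of co-bound and 6.91% of promoter peaks without RBS. The ratio to the flanks was then 14.0, the lowest of any setting, and it was highest, at 210.5, within the peak from edge to edge.

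The consensus lay at the middle of the peaks. Within 1 kb of the members' centres there were 500 matches, of which 301 (60.2%) were within 25 bp and 399 within 50 bp. Their median distance from the centre was 18 bp, and just 59 lay from 100 bp to 1 kb away. In 421 members the consensus was wholly inside the peak, as in the Ret and Cbfb sequences printed above.

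**Figure D2:**
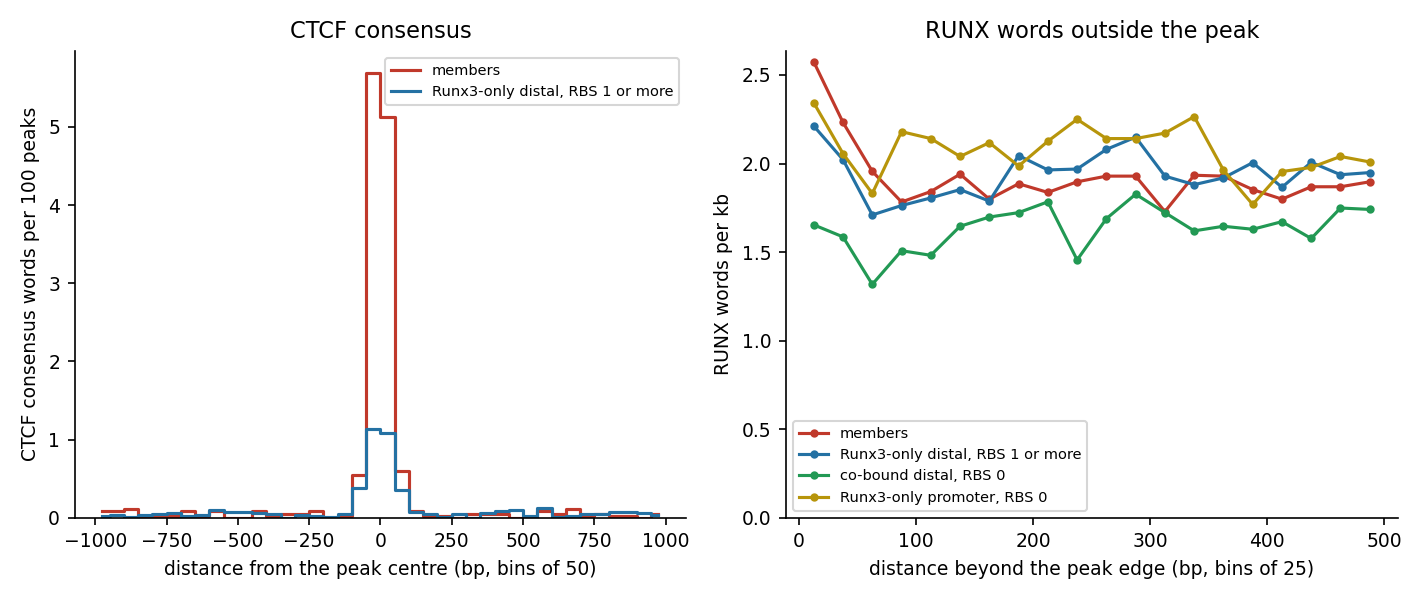
Left, CTCF consensus words per 100 peaks by distance from the peak centre (bp, bins of 50), for members and for Runx3-only distal peaks with RBS, both with a maximum at the centre. Right, RUNX words per kb by distance beyond the peak edge (bp, bins of 25) in 4 groups of peaks, where members have 2.57 words per kb next to the edge and 1.73 to 1.94 from 100 bp on.

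The share of peaks with a CTCF consensus fell with the number of RUNX words. Over all Runx3-only distal peaks it was 11.8% with no RBS, 4.15% of 4197 peaks with 1 (3.58 to 4.79), 1.66% of 2405 with 2 (1.22 to 2.26) and 1.20% of 1329 with 3 or more (0.742 to 1.95). The intervals of neighbouring classes overlapped only between 2 and 3 or more. Among members the share also fell with width, from 17.5% in the narrowest of 4 classes of width (15.2 to 20.1) through 12.4% and 11.8% to 5.53% in the widest (4.23 to 7.20). Peaks with RBS were wider than members, and the shares by RBS were not compared at equal width. How much of the fall with the number of RUNX words goes with width was therefore not tested. Against all peaks with RBS, the odds ratio for the consensus was 3.27 or more under every alternative. One of these kept only the wider members (1868). Narrow members therefore carried the word more often than wide ones, although the window searched was the same. By position, it was in 11.2% of intronic, 12.6% of intergenic and 11.2% of exonic members, with overlapping intervals. It was in 5.51% of members near a noncoding TSS (3.37 to 8.90) and in 12.3% of the others (11.3 to 13.5). Of members 5 to 50 kb from a protein-coding TSS 14.4% held it, as did 10.7% nearer and 8.84% farther away. These splits are descriptions and were not tested.

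**Figure D3:**
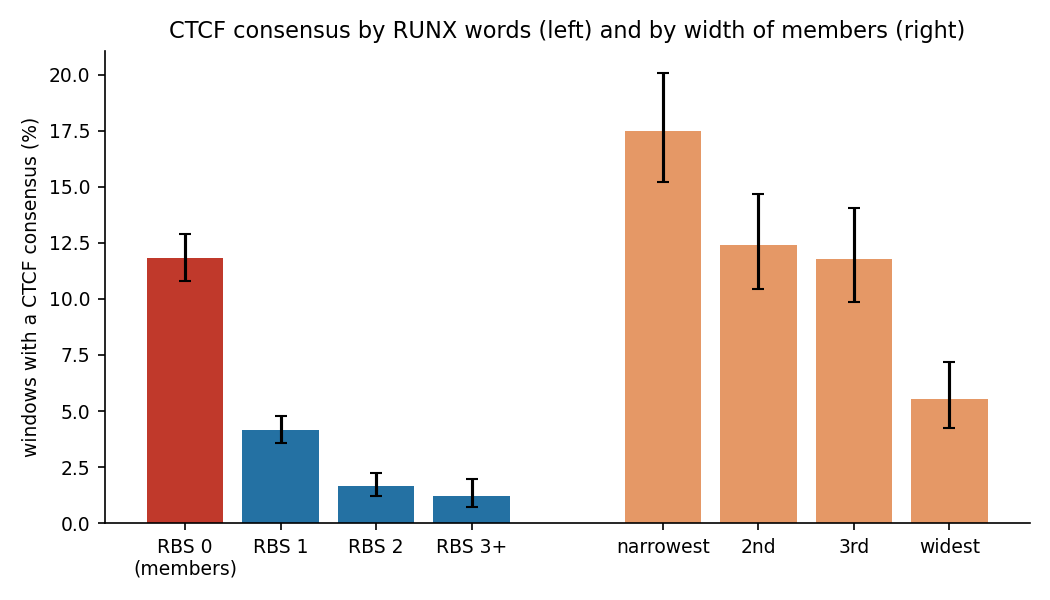
Share of 200 bp windows with the CTCF consensus (%) in Runx3-only distal peaks by number of RUNX words (left) and in members by 4 classes of width (right), with bars from 0 and Wilson 95% intervals. The share goes from 11.8% without RBS to 1.20% with 3 or more, and from 17.5% in the narrowest to 5.53% in the widest class of members.

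Members with and without the consensus differed in their surroundings. Those with it had a median width of 95 bp, against 116 bp for the other 3255, and 4.36% had another Runx3 peak within 1 kb, against 14.9%. A Brn3a peak lay within 1 kb of 6.42% and 10.3%, and the median distance to a protein-coding TSS was 23.7 and 30.2 kb. The members with a CTCF consensus were thus the narrower and more solitary ones. Their median GC content was 50%, against 51%, so that the word did not go with a richer GC content of the window.

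Apart from CTCF, the words more frequent than in the flanks were those of SP/KLF, EBF, RFX, Isl1, CRE, Brn3, NFI and ETS and both E-boxes. The GC box of Sp and Klf factors was in 12.1% of members and 3.90% of flanks (ratio 3.10, 2.59 to 3.72, exact adjusted p = 9.58e-41, exact McNemar test). The EBF word, read by the Ebf factors of differentiating neurons, was in 12.3% and 5.23% (ratio 2.35, 2.0 to 2.77, exact adjusted p = 4.76e-27). The E-box CAGCTG was in 18.7% and 10.7% (ratio 1.75, 1.56 to 1.97, exact adjusted p = 3.34e-22). These 3, and RFX (10.7% and 5.91%) and Isl1 (12.8% and 7.57%), kept their call under all 13 alternatives run for each. The CRE word of Creb and Atf proteins was rare, in 27 members and 2 flanks. Smaller differences were those of CAGATG (20.6% and 15.5%), NFI (34.9% and 29.5%) and ETS (29.0% and 25.4%), the last of which lost its call in windows of 100 bp (exact adjusted p = 0.135).

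The 4 sets less frequent in members than in the flanks were those of MEF2, of GATA, of homeodomain factors and of the Brn3 core. The MEF2 word was in 1.17% and 3.71% (ratio 0.314, 0.224 to 0.441, exact adjusted p = 3.22e-12, exact McNemar test) and GATA in 7.43% and 10.2% (ratio 0.727, 0.626 to 0.843, exact adjusted p = 6.82e-05). TAATTA was in 4.34% and 5.69% and the Brn3 core in 3.99% and 5.07%, both below the flanks, while the full Brn3 word was above them with 3.42% and 2.28% (ratio 1.50, 1.14 to 1.97, exact adjusted p = 0.00774). These last 3 calls were lost under 5, 6 and 6 of 13 alternatives, among them the flank on the other side. The words of AP-1, KLF CACCC, SOX, TEAD, FOX, ONECUT and NFY did not pass.

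Against the Runx3-only distal peaks with RBS, 5 of the 22 sets differed (22.7%). Members held CTCF, SP/KLF (12.1% against 9.67%, odds ratio 1.29, exact adjusted p = 0.000175), RFX (10.8% against 8.90%, odds ratio 1.23, exact adjusted p = 0.00328) and NFY (24.1% against 20.9%, odds ratio 1.21, exact adjusted p = 0.000185) more often by Fisher's exact test. KLF CACCC was less frequent, 24.4% against 27.1% (odds ratio 0.867, exact adjusted p = 0.00351), a call lost under 2 of 9 alternatives. Its word GGGTGT can overlap TGTGGT, which members lack by the rule. This difference may thus be partly fixed by the rule, and that part was not tested. Apart from CTCF, then, members and Runx3-bound distal peaks with a RUNX word differed by odds ratios between 0.859 and 1.29 over the 21 other sets. The E-box CAGCTG, for example, was in 18.7% and 19.8% (odds ratio 0.933, 0.844 to 1.03), and Isl1 in 12.8% and 12.1% (odds ratio 1.06, 0.944 to 1.20).

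Against co-bound distal peaks without RBS, 13 sets differed (59.1%), 4 higher in members and 9 lower. The lower ones were led by words of neuronal homeodomain factors, which is partly fixed by the rule, since the co-bound peaks hold Brn3a and members were chosen not to. The Brn3 core was in 3.98% against 12.2%, the Brn3 word in 3.41% against 7.02% and TAATTA in 4.33% against 10.2%. Isl1 was in 12.8% against 25.9% (odds ratio 0.421, 0.368 to 0.481, exact adjusted p = 5.77e-36, Fisher's exact test) and ONECUT in 8.51% against 15.6% (odds ratio 0.501, 0.427 to 0.589, exact adjusted p = 2.28e-16). Both E-boxes, EBF and GATA were the other lower words, and CTCF, ETS, SP/KLF and SOX the higher ones, ETS with 29.0% against 23.4%. The calls of SP/KLF and SOX were each lost under 3 of 9 alternatives.

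Against Runx3-only promoter peaks without RBS, 20 sets differed (90.9%), 14 higher and 6 lower in members. Promoters had a median GC content of 63.5% in the window, against 51% in members. SP/KLF was in 60.0% of promoter peaks and 12.1% of members, CRE in 2.87% and 0.732%, and NFY in 36.0% and 24.1%. The windows met a usual definition of CpG-rich DNA (GC of at least 55% and observed over expected CpG of at least 0.6) in 69.8% of promoter peaks but in 259 members (7.02%), 5.64% of distal peaks with RBS and 5.43% of co-bound peaks, and in 1.33% of the members' flanks.

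The rule looked for RUNX words inside the peak and not beside it. Within 100 bp beyond either edge, 1242 members (33.6%) held a RUNX word, against 1091 (29.6%) in stretches of the same length 2 kb farther out (ratio 1.14, 1.06 to 1.22, exact adjusted p = 0.000342, exact McNemar test). The word was there alone in 870 members and only in the farther stretches in 719. Neither kind of stretch was kept clear of other peaks, and 324 members had another Runx3 peak with RBS within 1 kb. The part of such peaks and of GC content in this difference was not tested. Next to the edge, in the first 25 bp, members had 2.57 RUNX words per kb, then 2.23, 1.96 and 1.78 in the following bins, and between 1.73 and 1.94 from 100 to 500 bp. The values above the range found farther out were thus mainly those of the first 50 bp, while the words of the Isl1 and Whrn sequences printed above lay 60 and 73 bp from the edge. The share was higher than the 30.8% of distal peaks with RBS (odds ratio 1.14, 1.05 to 1.24, exact adjusted p = 0.00459, Fisher's exact test) and the 24.9% of co-bound peaks without RBS (odds ratio 1.53, 1.36 to 1.71, exact adjusted p = 2.44e-12), and it did not differ by the test from the 32.7% of promoter peaks (odds ratio 1.04, 0.938 to 1.16, exact adjusted p = 0.528). In the wider members, those above the median width, the difference from peaks with RBS did not pass (odds ratio 1.10, exact adjusted p = 0.136, Fisher's exact test). In the first 25 bp, peaks with RBS had 2.21 RUNX words per kb, promoter peaks without RBS 2.34 and co-bound peaks without RBS 1.65. For the former 2 groups this was their highest bin, so a rise next to the edge was not particular to members.

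Inside the peaks, some words 1 base away from a RUNX word were frequent. They are described without a test, since the rule removes RUNX words and so changes the frequency of words that overlap them. CGTGGT was in 214 members (5.80%) and in 70 flanks of the same width (1.90%), a ratio of 3.06 (2.34 to 3.99). CGCGGT was in 92 and 8 (ratio 11.5, 5.59 to 23.7), the highest ratio of 2075 words of 6 bases that were present in at least 20 windows. Words with CpG were high in general, with a median ratio of 3.56 for those with 2 CpG or more, 1.75 with 1 and 0.910 with none, and the part of CpG content in these ratios was not tested. Of the words without CpG, AGTGGT had a ratio of 1.98 (1.71 to 2.29) and GGTGGT of 1.52 (1.30 to 1.77).

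The words were also grouped by the base that was changed. Any of the 6 words that differ from TGTGGT or TGCGGT in the first base was in 32.9% of members and 16.3% of flanks (ratio 2.02, 1.86 to 2.21), and most of these 6 hold a CpG. Any of the 24 words that differ at another base was in 77.4% and 69.7% (ratio 1.11, 1.08 to 1.14). The word TTTGGT, changed at the second base, was below its flanks, with a ratio of 0.687 (0.580 to 0.814), and TGTAGT, changed at the fourth, had 0.765 (0.618 to 0.946). CGTGGT or CGCGGT was in 298 members with a flank against 78 flanks (8.08% and 2.11%, ratio 3.82, 2.99 to 4.88), and in the 3252 members without a CTCF consensus the ratio was 3.88 (3.0 to 5.0). The Runx3-only distal peaks with RBS showed the same words above their flanks, CGCGGT with a ratio of 6.44 (4.49 to 9.23) and CGTGGT with 1.98 (1.71 to 2.30), so they were not particular to members.

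**Figure D4:**
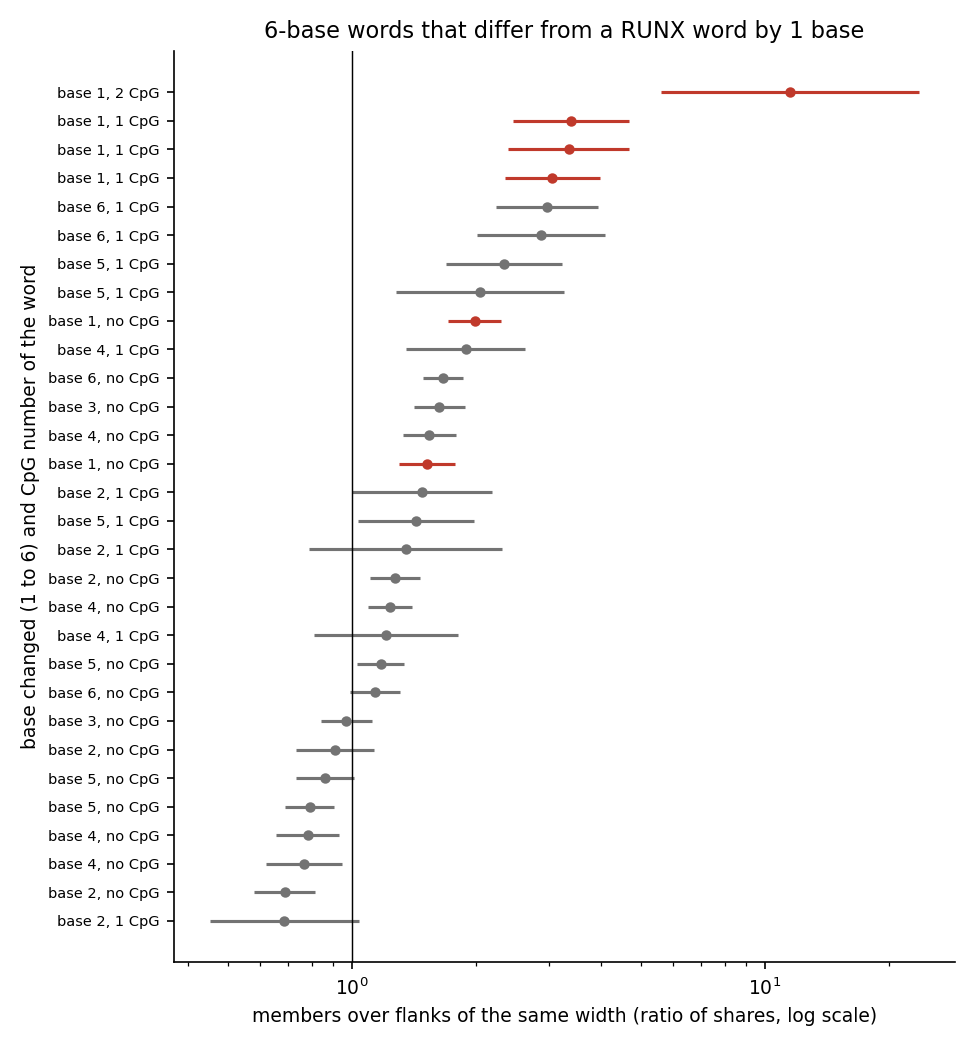
Ratio of the share of members to the share of flanks of the same width that hold each of the 30 words 1 base from TGTGGT or TGCGGT (log scale, with 95% intervals), sorted, with the changed base and the number of CpG as labels and words changed at the first base in red. The first-base words have ratios from 1.52 to 11.5.

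At the other end, TATATA was in 2.06% of the members' windows and 6.32% of flanks (ratio 0.326) and CAGGTA in 3.66% and 8.89% (ratio 0.411). Both were also below the flanks in the other 3 groups of Runx3 peaks, with ratios from 0.140 to 0.381.

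The members were also counted by 4 features, whose shares in the flanks were, in the order used here, 0.108%, 2.11%, 29.6% and 1.33%. The CTCF consensus was in 436, CGTGGT or CGCGGT in 299 (8.10%), a RUNX word within 100 bp outside in 1242 and a CpG-rich window in 259, while 1832 (49.6%) had none of these 4. CTCF and a CpG-rich window were together in 8 members, so that few members had both. A RUNX word outside was less often found with CTCF, which was in 9.34% of members with such a word (7.84 to 11.1) and 13.1% of those without (11.8 to 14.5).

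Genes were linked to members through regulatory domains of 5 kb before and 1 kb after the 5′ end of each protein-coding gene, extended to the neighbouring domains by at most 1 Mb. Of 21924 genes, 4579 had at least 1 member in their domain (20.9%), and 13 members lay in no domain. Of all pairs of a gene and a Runx3-only distal peak in its domain, 31.6% were with members. Gene lists are described by these shares without a test, and long domains hold more peaks of any kind.

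The genes with most members were Irs2, an insulin receptor substrate, with 10 of the 19 Runx3-only distal peaks in its domain, and the neighbours Nfe2l3, a bZIP factor, and Npvf, a neuropeptide precursor, with 10 of 17 each. Agap1, an Arf GTPase-activating protein, had 9 of 19 and Rflna, a filamin-binding protein, 9 of 17. Gm26897 had 8 of 27 and the secreted kinase gene Pkdcc 8 of 14. A further 12 genes had 7, among them Gbx2 (7 of 13), Lmx1a (7 of 14), Smad7 (7 of 20) and Sox9 (7 of 27). These 4 were picked from the 12 and encode transcription factors and an inhibitory Smad (Smad7). Others of the 12 were Gins2, Kif26b and Pmfbp1, and the genes with most members were of diverse function. A peak can lie in several domains, so the order depends on the link to genes. With each peak given to its nearest TSS, Pkdcc kept 8 members, Pmfbp1 7, Npvf 6, Irs2 and Nfe2l3 4 each and Rflna 2.

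Members were few around genes of the RUNX family and its cofactors, although Runx3-only distal peaks were many. They made up 14 of 80 such peaks (17.5%), below the 31.6% over all genes, and 6 of 11 genes had 1 or more. The Groucho corepressors Tle3 and Tle4 had 6 of 26 and 3 of 10. Runx1 had 2 of 21, Cbfb 1 of 3, Runx1t1 1 of 4 and Runx3 1 of 2, the last counted without the 300 kb left out around that gene. That of Cbfb is the peak with a CTCF consensus printed above, 47.4 kb from the gene. Runx2, Tle1, Tle2, Cbfa2t2 and Cbfa2t3 had none, Tle1 with 7 Runx3-only distal peaks in its domain.

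Transcription factor genes of sensory neurons had members in 22 of 43 cases, with 60 of 173 peaks (34.7%, or 31.6% by the nearest TSS, against 31.8% over all genes by that link). Many were around the homeodomain cofactor Meis2 (6 of 8) and around Ebf1 (5 of 11), an early B-cell factor that also acts in neurons. Maf, Meis1 and Sox11 had 4 each. Pou4f1, which encodes Brn3a, had 1 of 3, in an intron 462.7 kb from it. Isl1 had 1 of 2, at 337.2 kb. The proneural genes Neurog1, Neurod1 and Neurod2 had none of 2, 1 and 1 Runx3-only distal peaks.

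Genes that mark proprioceptors had 11 members of 47 peaks (23.4%), in 7 of 20 genes. Etv1 had 3 of 5, with the nearest at 1.16 kb, printed above. Whrn had 2 of 5, the nearest at 26.2 kb, and the cadherin gene Cdh13 2 of 8. Calb2, which encodes calretinin, the vesicular glutamate transporter gene Slc17a7 and the mechanosensitive channel gene Piezo2 had 1 each, and that of Piezo2 held a CTCF consensus. Ntrk3, which encodes TrkC, had none of its 3 Runx3-only distal peaks among members, and Pvalb, which encodes parvalbumin, none of 1. The Runx3-only distal peaks of these 2 markers therefore all held RUNX words.

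Genes of low-threshold mechanoreceptors had 19 of 73 (26.0%), in 9 of 16 genes. With each peak given to its nearest TSS, their share was 33.3%, against 31.8% over all genes. Maf had 4 of 14, the GDNF-family coreceptor Gfra1 3 of 13, Ret 3 of 6, and Ntrk2, which encodes TrkB, 2 of 15. Genes of nociceptors and thermoceptors had 5 of 36 (13.9%) in 4 of 20 genes, with Runx1 2 of 21. The domains of this list were short, with a median of 134.5 kb against 597.1 kb for the mechanoreceptor genes.

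Among broader lists, axon guidance and adhesion genes had members in 25 of 40, more than any other list, with domains of a median of 1353 kb. They included the teneurin Tenm4 (5 of 15), the guidance cue Ntn1 (4 of 6) and the Robo ligand Slit1 (4 of 8). Pan-neuronal genes had members in 13 of 23, with Ncam1 4 of 8, Rbfox1 4 of 7, of which 2 held a CTCF consensus, and Gap43 3 of 7. Neurotrophin receptors and ligands had 14 of 57 peaks (24.6%), and ion channel and synaptic genes 24 of 80 (30.0%). Immune genes had 20 of 54 (37.0%), led by the ETS factor Ets1, for which all 5 of its Runx3-only distal peaks were members. Glial and neural crest genes had 18 of 62 (29.0%, or 33.3% by the nearest TSS), with Sox9 7 of 27 and Sox2 4 of 12. Muscle and liver genes had 8 of 25 (32.0%), and endothelial, mesenchymal and erythroid genes 6 of 20 (30.0%), a share that was 14.3% when each peak was given to its nearest TSS. Cell cycle genes had 10 of 41 (24.4%), translation genes 11 of 54 (20.4%), and Hox genes 3 of 21 (14.3%).

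**Figure D5:**
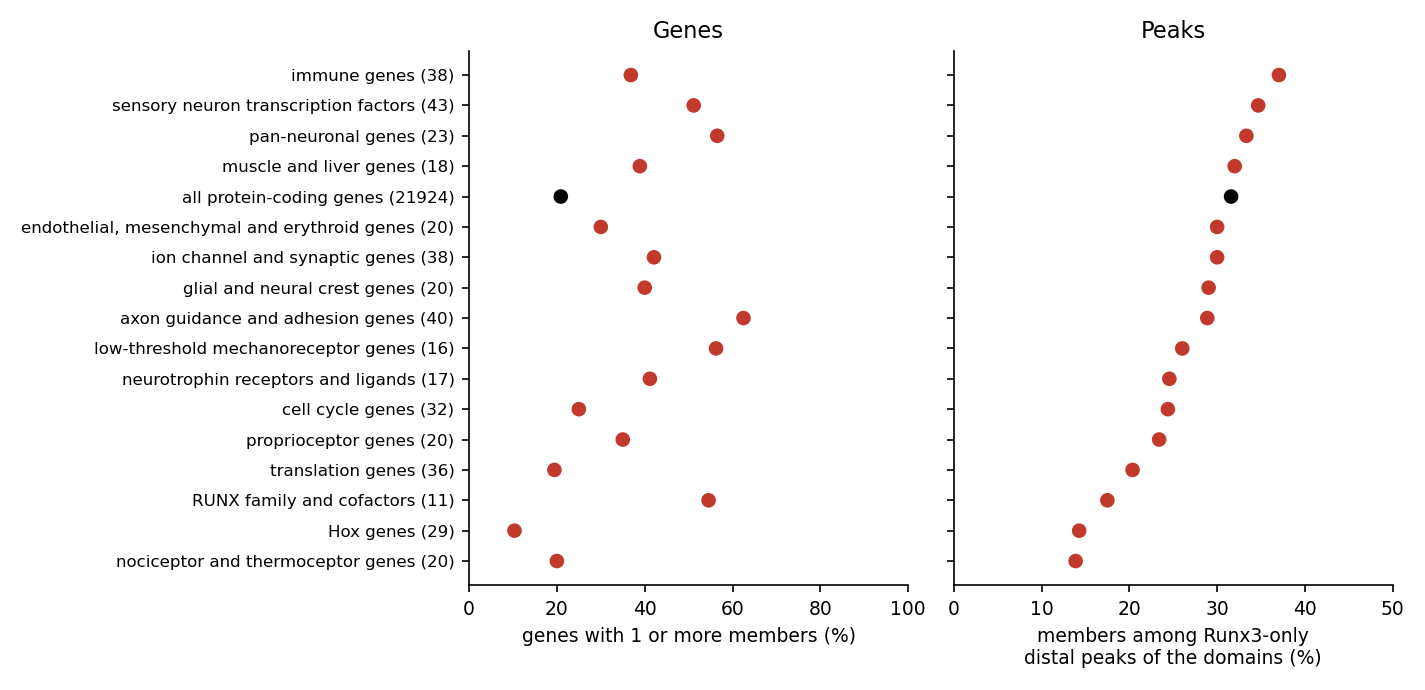
Left, share of the genes of each list with 1 or more members in their domain (%). Right, members as a share of Runx3-only distal peaks in the domains (%), sorted, with all protein-coding genes in black at 31.6% and the numbers of genes in brackets. The lists lie from 13.9% (nociceptor and thermoceptor genes) to 37.0% (immune genes).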

How the data were processed

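Peak positions in base pairs were the deposited measurement. Of tools, cutadapt, Bowtie and MACS2 are named by the submitters' processing notes, with the builds GRCm38 and mm10 and no versions. How peaks were called was not stated. The authors deposited 1 consensus list per antibody and, for Runx3, the RBS number as a whole-number count per peak. Of 3 tables deposited, the one labelled H3K27Ac was the same as the Runx3 table and was not used, and 2 mitochondrial peaks were left out. Members and gene lists were chosen with earlier results of these data known.

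Positions were compared with the RefSeq GRCm38 sequence and GENCODE gene annotation of mm10 using scipy 1.17.1, numpy 2.4.6 and pandas 2.3.3 under Python 3.11.15, and plotted with matplotlib 3.10.9. Starts were read as 1-based, since the RBS count then equalled the own count of words in 25885 of 25885 peaks (25808 if 0-based). Shares have Wilson 95% intervals. Members were compared with their flanks by an exact McNemar test and with other peaks by Fisher's exact test, all two-sided, with Benjamini-Hochberg adjustment over 103 tests. The tests were tested on simulated data. Of 405 listed symbols, 1 was not matched. Named are the 10 genes with most members, with ties, the 3 with most of each list, genes of the RUNX, sensory neuron, proprioceptor and mechanoreceptor lists as needed, and the 5 widest members. Of genes named outside this rule, and of the sequences, the choice was made after their values were seen. Some genes within the rule are not reported here. Alternatives changed the distance for distal, the Brn3a gap, the width, the repeats, the words counted, the TSS set, the window, the flank and the link to genes. Added after seeing the data were the CTCF consensus with 1 letter free, the peak from edge to edge, members without CTCF, members that share no 24 bases and the Brn3a-only peaks.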

Additional observations from a re-analysis of the deposited data

How the results depend on the processing

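Of the comparisons, 192 values kept their direction, their call or their size under the alternatives. The CTCF call held in all of them, with ratios to the flank from 14.0 to 210.5 and odds ratios from 3.27 to 5.35 against peaks with RBS, 3.18 to 4.83 against co-bound and 5.07 to 15.4 against promoter peaks. In the wider members (1868), the odds ratio for a RUNX word outside against peaks with RBS was 1.10 (exact adjusted p = 0.136, Fisher's exact test), and those for repeats were 0.868 against peaks with RBS and 0.955 against promoter peaks, both reversed, and 1.87 against co-bound peaks (exact adjusted p = 0.406). With any masked base counted, they were 0.710 and 0.688, reversed, and 1.12 (exact adjusted p = 0.0715). Without members that share 24 bases, they were 1.66 against peaks with RBS (exact adjusted p = 0.0591) and 1.83 against promoter peaks (exact adjusted p = 0.110). With members defined by the lack of TGTGGT and TGCGGT alone (5142), exons against peaks with RBS (odds ratio 1.33, exact adjusted p = 0.000160), introns against co-bound peaks (0.899, exact adjusted p = 0.0272) and noncoding TSS against co-bound peaks (1.24, exact adjusted p = 0.0278) passed. The cause of these changes was not tested. By the nearest protein-coding TSS, 13.0% of genes had a member, against 20.9% by domains, since each peak then counts for 1 gene. Of the values of single words and lists, 809 stayed, 28 gained and 29 lost a call, and 6 moved. No paired analysis was possible because the lists pool the replicates, and for the same reason no library could be left out. Repeats could not be compared among peaks that are mostly unmasked, nor noncoding TSS with the TSS of all transcripts, since the alternative fixes the value. Depth per library is unknown, and a peak absent from a list may lie below its threshold.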
